A study of Mus musculus with 16 samples.

Results

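The Id proteins Id1, Id2 and Id3 and the E proteins Tcf3, Tcf4 and Tcf12 were followed through sorted splenic CD4 T cells of NOD/LtJ mice, by every probe set of the array that is annotated to 1 of these 6 genes. These were 13 of 45141 probe sets, 5 for Id proteins and 8 for E proteins. Expression was measured on 16 Affymetrix arrays, 4 in each of 4 groups, from untreated mice that were 6 weeks old. KI Tregs and KI Tconv, which are regulatory and conventional CD4 T cells, came from mice with the knock-in allele Foxp3tm2Ayr, described in the labels as Foxp3gfp, an allele known to encode Foxp3 with GFP fused to its amino end. WT Tregs and WT Tconv came from mice with the transgene Tg(Foxp3-EGFP/cre)1aJbs, which expresses EGFP and Cre under Foxp3 control, so the WT cells also carried a reporter. Nothing in the labels tells whether a group's arrays are from different mice, and p-values then measure only the spread between these samples.

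E proteins are transcription factors of the basic helix-loop-helix class that bind, as dimers, to the E-box, a short DNA motif with the letters CANNTG. Tcf3 encodes E12 and E47, Tcf12 encodes HEB and Tcf4 encodes E2-2. Id proteins have the helix-loop-helix that pairs with an E protein but lack the basic region that touches DNA, so a pair of an Id and an E protein does not bind the E-box. In mouse T cells the balance of E and Id proteins acts in thymic selection, in the choice between helper fates and in the maintenance of Tregs, and Id3 is known as a gene that T cell receptor signals induce through Egr factors.

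Positions are given on the assembly GRCm38.p6. Id2 spans chr12:25093799-25096092, Id3 spans chr4:136143822-136145392 and Id1 spans chr2:152736251-152737410. Tcf3 spans chr10:80409541-80433976 and Tcf12 spans chr9:71844252-72111893. Promoter sequences of Id2 and Id3 are shown because these were the members that differed between Tregs and Tconv, in opposite directions. Each window runs from 250 bases before to 50 bases after the gene's start and is taken from RefSeq, with any CANNTG motif in capitals. The Id2 window is chr12:25096043-25096342 on the minus strand and the Id3 window is chr4:136143572-136143871 on the plus strand, both in GRCm38.p6.
Id2: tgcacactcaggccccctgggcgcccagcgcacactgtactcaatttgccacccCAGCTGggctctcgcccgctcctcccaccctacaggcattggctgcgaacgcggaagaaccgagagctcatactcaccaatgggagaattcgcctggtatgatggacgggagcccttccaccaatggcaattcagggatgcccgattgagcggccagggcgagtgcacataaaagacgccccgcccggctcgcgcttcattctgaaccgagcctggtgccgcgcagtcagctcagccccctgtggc
Id3: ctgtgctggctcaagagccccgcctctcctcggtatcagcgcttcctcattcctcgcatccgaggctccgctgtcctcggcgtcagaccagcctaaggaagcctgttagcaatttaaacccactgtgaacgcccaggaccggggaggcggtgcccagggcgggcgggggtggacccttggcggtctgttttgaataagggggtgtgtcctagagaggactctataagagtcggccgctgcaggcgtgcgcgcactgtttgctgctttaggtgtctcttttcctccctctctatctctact
The Id2 window held 1 CANNTG match, the letters CAGCTG, whose first base lies 196 bases before the start. The Id3 window held 0. The motif is its own reverse complement, so 1 search covers both strands. Of 32851 promoter windows of the same length, 72.3% held CANNTG, 27.7% held none and 16.3% held CAGCTG. Such a match is a description of letters and no evidence of binding.

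Expression is given on the log2 scale, 1 value per probe set and array, so a difference of 1 is a 2-fold change. They ran from 1.95 to 13.9 over the table, with array medians between 3.69 and 3.76. Each array had 17527 to 17936 probe sets above 5. For comparison, 23 controls without a specific target lay at a median of 2.60 and at most at 4.71. A probe set was tested where it exceeded 5 on at least 4 arrays, which 18621 probe sets did, and it passed at an adjusted p under 0.05 in limma. Foxp3 lay at 9.39 to 10.05 in KI Tregs, 9.72 to 10.16 in WT Tregs, 3.57 to 3.78 in KI Tconv and 4.24 to 4.96 in WT Tconv. Of the T cell markers measured, Cd3e lay between 8.70 and 9.04 and Cd3g between 11.62 and 11.81 on every array. Cd4 was lower on every Treg array (7.37 to 7.61 in KI, 7.16 to 7.43 in WT) than on any Tconv array (7.92 to 8.11 in KI, 7.69 to 8.18 in WT). The protocol gives a gate of CD3+CD4+GFP- for all samples, those labelled Treg included, so how Tregs were gated is unclear.

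Of the 13 member probe sets, 8 were tested, namely 3 for Id2, 1 for Id3, 2 for Tcf3 and 2 for Tcf12. The other 5 were the single Id1 probe set, the 3 Tcf4 probe sets and 1 further Tcf3 probe set, which lay near the controls. In both genotypes Id2 was lower and Id3 higher in Tregs than in Tconv, while no tested probe set of Tcf3 or Tcf12 passed. Between KI and WT cells no tested member passed, in Tregs or in Tconv.

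Id2 encodes the Id protein known from innate lymphoid cells, natural killer cells and effector T cells. On probe set 1435176 it read 9.41, 9.69, 9.12 and 9.07 in KI Tregs and 9.17, 9.53, 9.30 and 9.59 in WT Tregs. The same probe set read 11.25, 10.90, 10.83 and 10.89 in KI Tconv and 10.85, 10.93, 10.96 and 10.90 in WT Tconv. Every Treg array was below every Tconv array, and the genotypes overlapped within each cell type. The difference was -1.65 (SE 0.126, adjusted p = 1.59e-08) between KI Tregs and KI Tconv, a level 3.13-fold lower. Between WT Tregs and WT Tconv it was -1.51 (SE 0.126, adjusted p = 6.32e-08), or 2.85-fold lower. In sorted bulk samples fewer cells of a type and less RNA per cell cannot be told apart. From the lowest level up, the groups were KI Tregs (9.32 ± 0.29), WT Tregs (9.40 ± 0.20), WT Tconv (10.91 ± 0.05) and KI Tconv (10.97 ± 0.19, SD, n = 4 each), and of the neighbours only WT Tregs and WT Tconv differed beyond their spread.

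The other Id2 probe sets gave the same direction. Probe set 1422537 read 8.75, 9.14, 8.31 and 8.13 in KI Tregs, against 10.41, 10.13, 10.01 and 10.04 in KI Tconv. In WT cells it read 8.47, 8.66, 8.35 and 8.67 in Tregs, against 10.12, 9.94, 9.96 and 10.13 in Tconv. Again no Treg array reached the lowest Tconv array. The differences were -1.57 in KI cells (SE 0.163, adjusted p = 7.34e-07) and -1.50 in WT cells (SE 0.163, adjusted p = 1.67e-06). Probe set 1453596 lay at 6.15 to 6.80 in KI Tregs and 6.18 to 6.59 in WT Tregs, against 7.52 to 7.90 in KI Tconv and 7.39 to 7.78 in WT Tconv. Its differences were smaller, at -1.18 in KI cells (SE 0.136, adjusted p = 2.56e-06) and -1.11 in WT cells (SE 0.136, adjusted p = 6.39e-06). As a description, deviations from the group means over the 16 arrays correlated at 0.89 between 1435176 and 1422537, and at 0.32 and 0.42 between these and 1453596, all 3 being read from the same arrays.

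Id3 encodes the Id protein that rises after T cell receptor signals, and in these arrays it ran opposite to Id2. Probe set 1416630 read 8.61, 8.89, 8.68 and 8.76 in KI Tregs, against 7.80, 7.70, 7.90 and 7.52 in KI Tconv. In WT cells it read 9.49, 9.43, 9.03 and 8.82 in Tregs, against 7.82, 8.05, 7.88 and 7.32 in Tconv. All 8 Treg arrays lay above all 8 Tconv arrays. Id3 exceeded its KI Tconv level 2.01-fold in KI Tregs (log2 difference 1.00, SE 0.157, adjusted p = 7.26e-05) and its WT Tconv level 2.68-fold in WT Tregs (1.42, SE 0.157, adjusted p = 1.85e-06). From the highest level down, the groups were WT Tregs (9.19 ± 0.32), KI Tregs (8.74 ± 0.12), WT Tconv (7.77 ± 0.31) and KI Tconv (7.73 ± 0.16, SD, n = 4 each), and of the neighbours only KI Tregs and WT Tconv were without overlap.

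**Figure D1:**
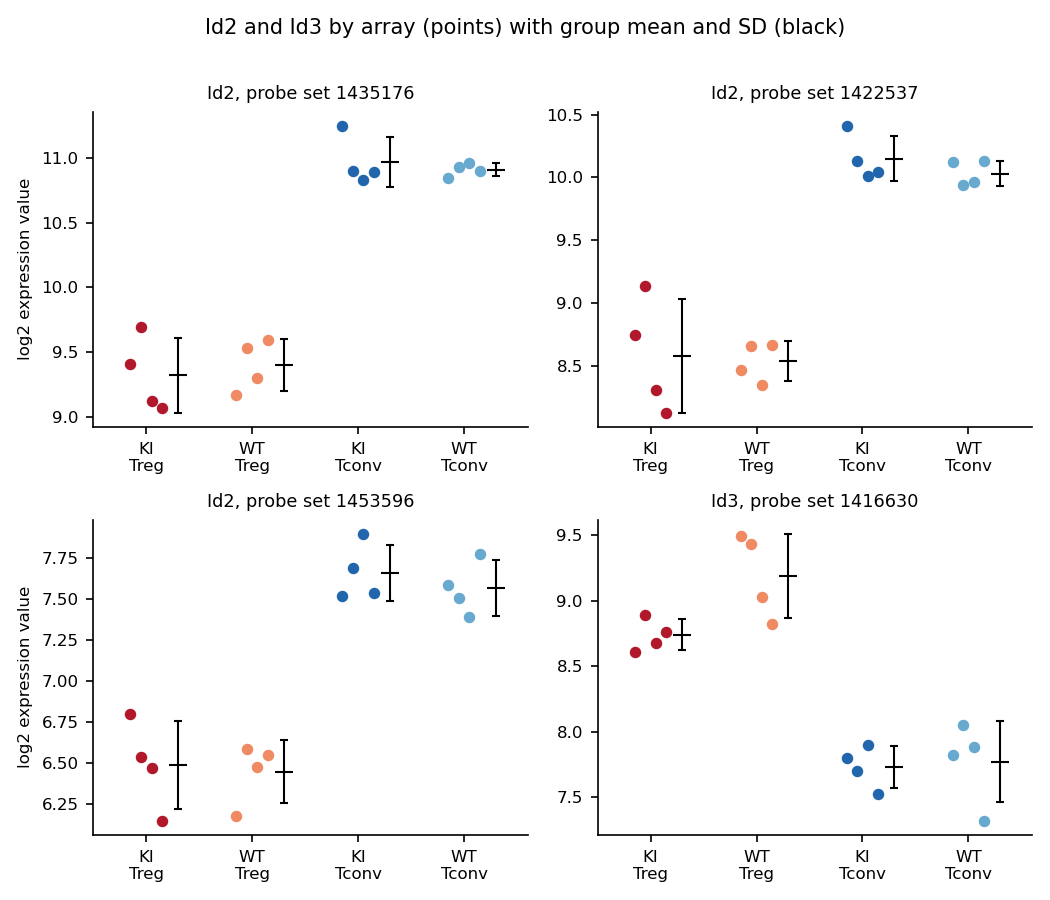
Log2 expression values of the 3 Id2 probe sets and the Id3 probe set, 1 point per array, in KI Tregs, WT Tregs, KI Tconv and WT Tconv, with group mean and SD (n = 4) in black on axes that differ between panels. Id2 is lower in all 8 Treg arrays than in all 8 Tconv arrays, and Id3 is higher in all 8.

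In each genotype 4 of the 8 tested member probe sets passed between Tregs and Tconv, 1 higher and 3 lower, and the 3 lower ones are all Id2. Many probe sets passed in these comparisons, 36.6% of all tested between KI Tregs and KI Tconv and 28.9% between WT Tregs and WT Tconv, so the count itself is close to the background. By direction, 16.9% were higher and 19.7% lower in KI Tregs, and 13.7% were higher and 15.1% lower in WT Tregs. The 4 that passed were also the 4 without overlap between the groups, which held for 31.1% of tested probe sets in KI cells and 32.8% in WT cells. By size, 3.29% of tested probe sets differed by more than Id2 probe set 1435176 in KI cells and 2.78% in WT cells. The shares were 3.61% and 2.83% for Id2 probe set 1422537, and 5.77% and 4.87% for 1453596. For Id3 these shares were 7.29% in KI cells and 3.14% in WT cells. Over all tested probe sets the median difference was -0.0516 in KI cells and -0.0319 in WT cells.

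Transcripts of other cells were present to varying degrees. For natural killer cells, a cell type that expresses Id2, all 5 markers were measured, and their mean was 3.88 to 4.22 on KI Treg arrays, 3.80 to 4.06 on WT Treg arrays, 3.61 to 3.96 on KI Tconv arrays and 3.70 to 3.98 on WT Tconv arrays. The defining markers Ncr1 and Klrb1c lay at 2.78 to 3.36 on all arrays and Klra8 at 2.52 to 3.08, within the range of the controls, and Gzma reached 5.09. Eomes, which T cells also express, lay above the controls and was higher on every Treg array (6.19 to 6.83 in KI, 6.22 to 7.21 in WT) than on any Tconv array (5.30 to 6.01 in KI, 5.21 to 6.03 in WT). Neutrophil markers, all 4 of them measured, averaged 5.31 to 8.70 on KI Treg arrays, 3.57 to 8.45 on WT Treg arrays, 4.08 to 7.55 on KI Tconv arrays and 4.80 to 7.81 on WT Tconv arrays. The highest values of the 2 Treg groups were those of the arrays numbered 15 (KI) and 24 (WT). These also had the highest Id2 value of their group on probe sets 1435176 and 1422537. On probe set 1453596 the highest were instead KI Treg 1 (6.80) and WT Treg 2 (6.59). In Tconv the array with the highest neutrophil mean had the highest value on 1435176 in KI cells (11.25) and the lowest in WT cells (10.85). On 1422537 the same arrays read 10.41, the highest of KI Tconv, and 10.12, where the highest WT Tconv value was 10.13. On 1453596 they read 7.52, the lowest of KI Tconv, and 7.59, inside the WT Tconv range of 7.39 to 7.78. Without the arrays numbered 15 and 24, Id2 and Id3 kept their direction and passed between Tregs and Tconv. Cd8a was higher on every Treg array than on any Tconv array, at 5.73 to 6.37 in KI Tregs and 6.22 to 6.63 in WT Tregs, against 3.92 to 4.61 in KI Tconv and 3.65 to 4.29 in WT Tconv. Cd8b1, the other CD8 marker, did not follow it, at 5.97 to 6.36 in KI Tregs and 5.99 to 6.27 in WT Tregs, against 6.24 to 6.60 in KI Tconv and 5.75 to 6.22 in WT Tconv. The part of Eomes or Cd8a in the Id2 and Id3 differences was not tested.

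The tested E protein probe sets overlapped between Tregs and Tconv in each genotype and none passed, with intervals that reached up to 0.54. Tcf12, on probe set 1427670, read 9.91, 9.80, 9.84 and 9.94 in KI Tregs and 9.78, 9.83, 9.82 and 9.91 in WT Tregs. It read 9.68, 9.77, 9.88 and 9.81 in KI Tconv and 9.77, 9.86, 9.82 and 9.74 in WT Tconv. All 4 groups overlapped. The difference was 0.09 between KI Tregs and KI Tconv, with a 95% confidence interval from -0.03 to 0.21, and 0.04 between WT Tregs and WT Tconv, from -0.08 to 0.16 (adjusted p = 0.242 and 0.681). Neither interval reached beyond 0.21. The other Tcf12 probe set, 1421908, lay between 7.56 and 8.37 and differed by 0.14 in KI cells (interval -0.14 to 0.43) and 0.25 in WT cells (interval -0.04 to 0.54), neither of which passed.

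Tcf3, the gene of E12 and E47, read 7.89, 8.24, 7.91 and 7.83 in KI Tregs and 7.92, 7.89, 7.82 and 7.84 in WT Tregs on probe set 1426297. In Tconv it read 8.04, 7.98, 8.01 and 7.95 for KI and 7.80, 8.02, 8.07 and 7.93 for WT. The array numbered 15, KI Treg 2, gave the highest value of all 16. The differences were -0.03 in KI cells (interval -0.21 to 0.16, adjusted p = 0.841) and -0.09 in WT cells (interval -0.27 to 0.10, adjusted p = 0.503). On probe set 1427764, values between 5.97 and 6.82 gave 0.12 in KI cells (interval -0.27 to 0.51) and 0.11 in WT cells (interval -0.28 to 0.50). Probe set 1452542, annotated to the same sequence record as 1427764, stayed at or below 3.86. Over the 16 arrays the deviations of these 2 from their group means correlated at 0.86.

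Tcf4, the gene of E2-2, which is known for its part in plasmacytoid dendritic cells and lies at chr18:69343429-69687967 of GRCm38.p6, gave low values. Its 3 probe sets lay between 3.38 and 5.21, and 1 value of 48 exceeded 5. With the filter on low values removed, 2 of the 3 passed between KI Tregs and KI Tconv. Probe set 1424089 read 4.88, 4.70, 4.81 and 4.46 in KI Tregs, against 4.15, 4.10, 3.99 and 3.42 in KI Tconv, a difference of 0.79 (SE 0.211, adjusted p = 0.0121). Probe set 1434149 differed by 0.58 (adjusted p = 0.0314) and 1434148 by 0.47 (adjusted p = 0.107). In WT cells the differences were 0.35, -0.04 and -0.06 for 1424089, 1434149 and 1434148, with adjusted p of 0.364, 0.94 and 0.9. Among the arrays numbered 24 to 27, which hold 1 array of each group, the WT differences were 0.82, 0.39 and 0.51. The KI differences there were 1.03, 0.69 and 0.16, with no test. The interaction, in which the genotype difference of Tconv is subtracted from that of Tregs, did not pass for any of the 3 (adjusted p = 0.814, 0.633 and 0.732), so the 2 genotypes were not shown to differ. With no filter 16.6% of 45037 probe sets passed in KI cells and 12.4% in WT cells. Of the plasmacytoid dendritic cell markers, 4 of 5 were measured and averaged 5.17 to 5.35 on KI Treg arrays, 4.95 to 5.31 on WT Treg arrays, 5.04 to 5.18 on KI Tconv arrays and 4.94 to 5.25 on WT Tconv arrays. Spib, Klk1 and Cox6a2 stayed at or below 4.97. Ccr9, which T cells also express, lay at 8.61 to 8.99 in KI Tregs, 7.55 to 8.14 in WT Tregs, 7.50 to 7.94 in KI Tconv and 7.54 to 7.64 in WT Tconv. It was thus highest in KI Tregs, as were the group means of Tcf4 over all arrays. Among the arrays numbered 24 to 27, Tcf4 was instead lower on the KI Treg array than on the WT Treg array. Probe sets 1424089, 1434149 and 1434148 read 4.46, 4.31 and 4.71 in KI, against 4.71, 4.35 and 4.79 in WT, with no test. Ccr9 read 8.99 and 7.83 on these 2 arrays. Monocyte markers, all 5 measured, averaged 3.76 to 5.41 in KI Tregs and 3.69 to 4.61 in KI Tconv. B cell markers, 6 of 7 measured, averaged 4.03 to 4.92 and 3.78 to 4.73. Of these, Cd79a, Pax5, Ebf1 and Blk stayed at or below 4.86. Cd79b lay at 6.47 to 7.40 in KI Tregs and 4.76 to 6.42 in KI Tconv, without overlap. In WT cells its ranges overlapped, at 6.75 to 7.85 in Tregs and 5.27 to 7.39 in Tconv. Ms4a1 overlapped between KI Tregs (4.71 to 7.36) and KI Tconv (4.66 to 7.09), and between WT Tregs (4.10 to 8.07) and WT Tconv (5.54 to 8.39). The part of any of these in the Tcf4 values was not tested.

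**Figure D2:**
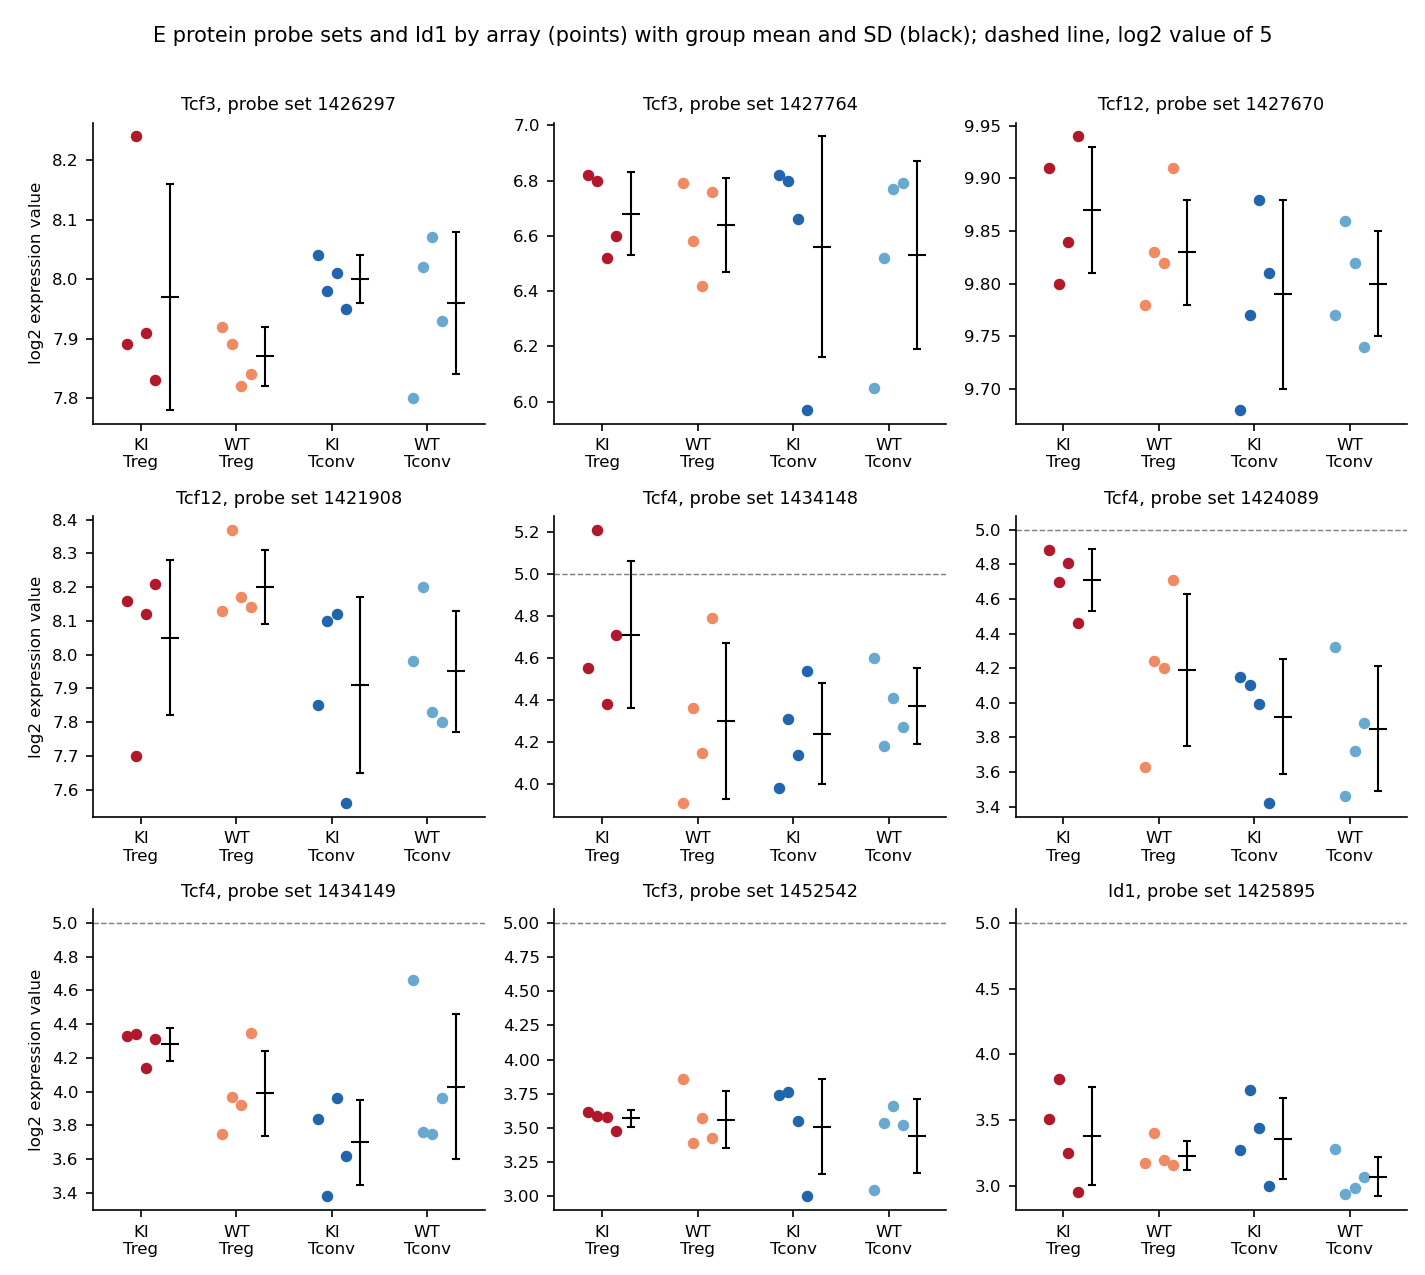
Log2 expression values of the E protein probe sets and Id1, 1 point per array by group, with group mean and SD (n = 4) in black; axes differ between panels and a dashed line marks a value of 5 where the axis reaches it. The tested Tcf3 and Tcf12 probe sets overlap between Tregs and Tconv of each genotype, and the other probe sets lie below the line apart from 1 Tcf4 value of 5.21.

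Id1, the Id protein best known from endothelial and stem cells, lay between 2.94 and 3.81 on all arrays, below the highest control value, and no level above background was seen for it. Of the 3 Id genes, Id2 and Id3 were thus the ones measured above background in these cells.

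Between the genotypes, 0 of 8 tested member probe sets passed in Tregs, where 1.51% of all tested probe sets did, and 1 had an unadjusted p under 0.05. In Tconv 0 of 8 passed, against 0.0967% of all tested probe sets, with 0 at an unadjusted p under 0.05. For the interaction 0 of 8 passed, against 0.371%, again with 0 at an unadjusted p under 0.05. The lowest adjusted p among members was 0.16 in Tregs, 0.949 in Tconv and 0.773 for the interaction.

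The 1 tested member with an unadjusted p under 0.05 was Id3. It averaged 8.74 ± 0.12 in KI Tregs and 9.19 ± 0.32 in WT Tregs (SD over 4 arrays each). The difference was -0.46 (SE 0.157, interval -0.79 to -0.13), with a limma adjusted p of 0.16. The highest KI Treg array, at 8.89, lay above the lowest WT Treg array, at 8.82. In Tconv the Id3 difference was -0.04 (interval -0.37 to 0.29), and the interaction was -0.42 (interval -0.89 to 0.05, adjusted p = 0.773). Id2 in Tregs differed between genotypes by -0.07, 0.04 and 0.03 for 1435176, 1422537 and 1453596, with intervals that reached from -0.34 to 0.39 at the widest. Tcf3 probe sets differed by 0.10 and 0.05 and Tcf12 probe sets by 0.04 and -0.15 in Tregs. With the filter on low values removed, Tcf4 probe sets 1424089, 1434149 and 1434148 differed by 0.52, 0.29 and 0.41 in Tregs. Their limma p-values were 0.0242, 0.128 and 0.0445 unadjusted, and 0.373, 0.605 and 0.457 adjusted. Among the arrays numbered 24 to 27, with 1 array per group and no test, these Tcf4 differences were -0.25, -0.03 and -0.08.

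**Figure D3:**
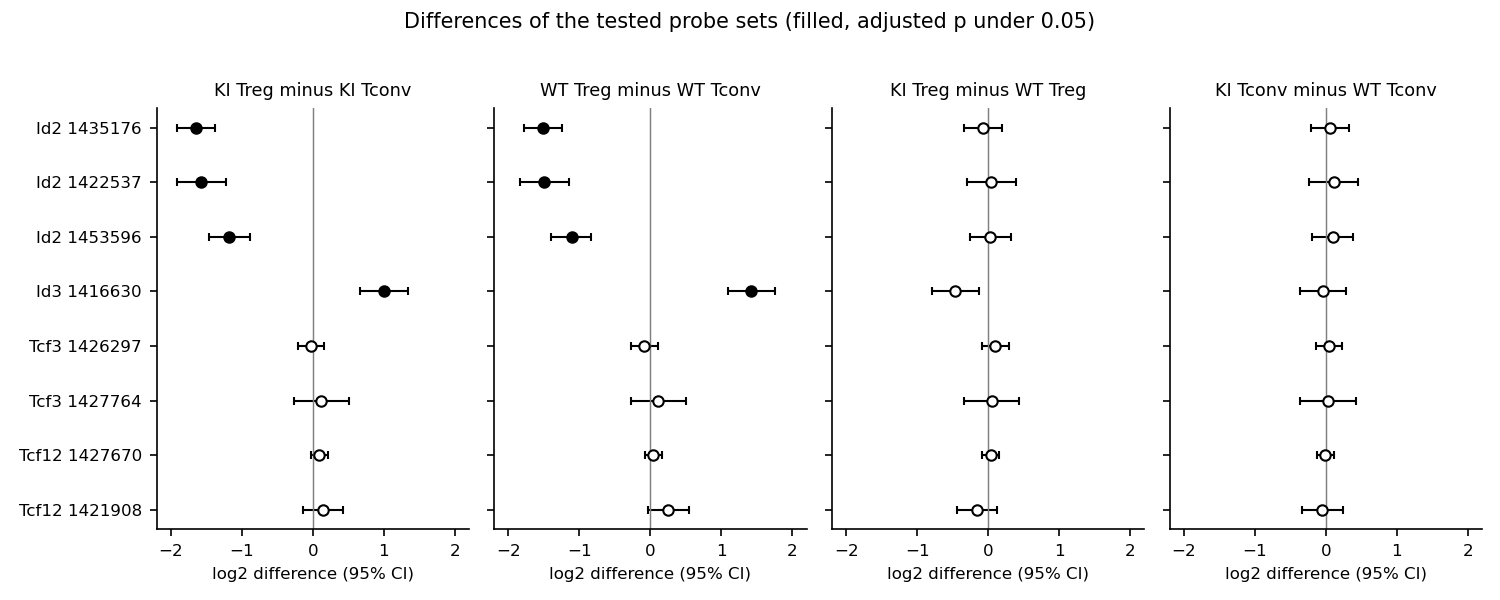
Log2 differences of the 8 tested member probe sets with 95% confidence intervals from limma, 1 panel per comparison, where filled points passed at an adjusted p under 0.05. The 3 Id2 probe sets and Id3 are filled in both comparisons of Tregs with Tconv, and no point is filled between KI and WT cells.

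Differences of Id3 and other members between KI and WT Tregs depended on which arrays were set side by side. Sample titles carry array numbers, of which 4 to 9 hold WT samples only, 13 to 23 hold KI samples only, and 24 to 27 hold 1 sample of each group. What the numbers stand for is not stated. Among numbers 4 to 9 the WT Tregs read 9.03 to 9.49, and among 13 to 23 the KI Tregs read 8.61 to 8.89, with no overlap. Within numbers 24 to 27 the KI Treg array read 8.76 and the WT Treg array 8.82, a difference of -0.06. With the 3 ranges as a block the difference was -0.14 (SE 0.167, adjusted p = 0.939), and without numbers 24 to 27 it was -0.59 (SE 0.121, adjusted p = 0.0159), where genotype and range cannot be told apart. The Id2 differences between KI and WT Tregs moved with the ranges too. With the 3 ranges as a block they were -0.33, -0.35 and -0.35 for probe sets 1435176, 1422537 and 1453596 (adjusted p = 0.85, 0.882 and 0.79), so that 2 of the 3 changed sign, and within 24 to 27, with no test, they were -0.52, -0.54 and -0.40. Tcf3 probe set 1427764 moved to -0.48 with the block (adjusted p = 0.784). Id2 and Id3 differed between Tregs and Tconv within 24 to 27 as well, by -1.81 for Id2 probe set 1435176 and 1.24 for Id3 in KI cells, and by -1.31 and 1.50 in WT cells. Tcf3 probe sets 1427764 and 1426297 differed there by 0.62 and -0.12 in KI cells and by -0.02 and -0.08 in WT cells, with no test. For Tcf12 probe sets 1421908 and 1427670 the values were 0.66 and 0.12 in KI cells and 0.34 and 0.16 in WT cells.

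**Figure D4:**
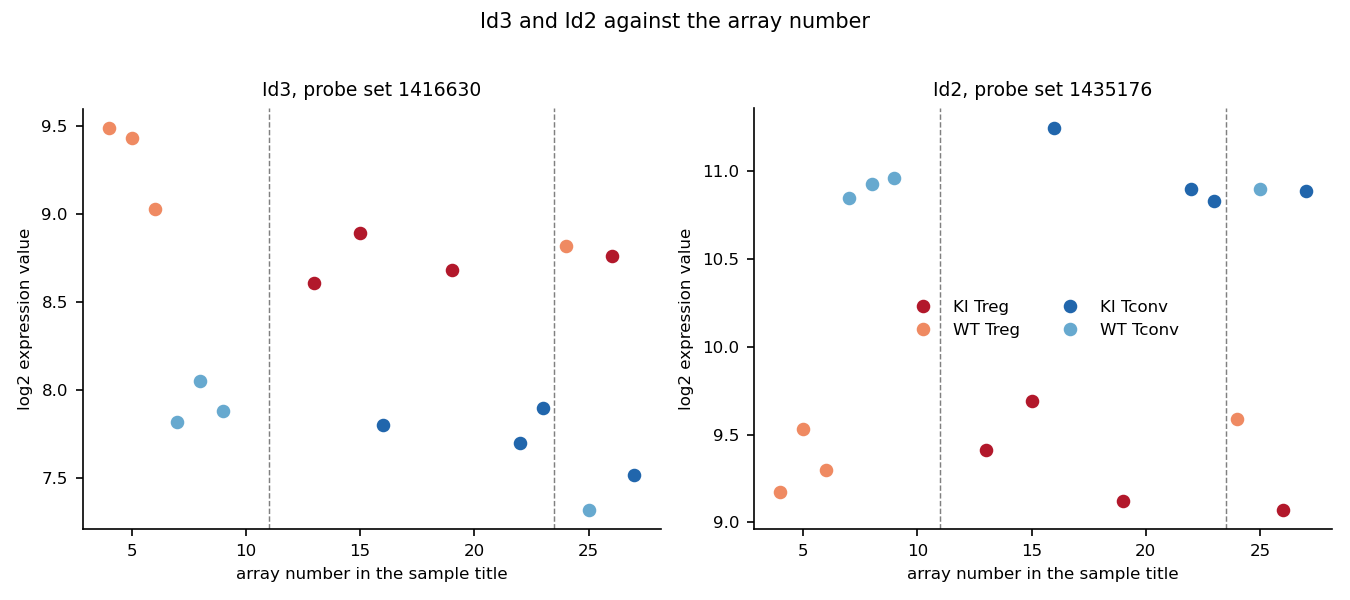
Log2 expression values of Id3 (left) and Id2 (right, probe set 1435176) against the array number in the sample title, 1 point per array, with dashed lines between the ranges 4 to 9, 13 to 23 and 24 to 27. Tregs and Tconv stay apart in every range, while WT Treg values of Id3 lie between 8.82 and 9.49.

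Around these members, 4 lists of genes of the same network were counted, each gene by its probe set with the highest mean. The shares beside the counts are over all tested probe sets, where a gene can count more than once. With 1 probe set per gene, 3343 of 8139 passed between Tregs and Tconv in KI cells and 2818 of 8139 in WT cells. Inputs to Id genes, which are receptors and Smads of the BMP and TGF-beta pathways and Egr factors, had 10 of 17 genes tested, and all 10 passed between KI Tregs and KI Tconv, 5 higher and 5 lower, where 36.6% of all tested probe sets passed. In WT cells 8 passed, 4 higher and 4 lower, where 28.9% of all did. The list's median difference was -0.02 in KI cells and -0.04 in WT cells, so it moved in no common direction. Bmpr2, a BMP receptor, was higher by 1.10 in KI Tregs and 1.35 in WT Tregs than in Tconv, and Tgfbr1, a TGF-beta receptor, by 1.36 and 1.02. Egr2, an Egr factor that T cell receptor signals induce, was higher by 0.89 in KI cells and 1.07 in WT cells, and Egr1 by 0.34 and 0.40. Lower in Tregs were Tgfbr2, the partner of Tgfbr1, by -1.21 in KI cells and -0.76 in WT cells, Smad1, which transmits BMP signals, by -0.90 and -0.64, and Smad7, an inhibitory Smad, by -0.94 and -0.61.

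Genes tied to E or Id proteins in T cells had 7 of 17 tested, of which 3 were higher and 1 lower in Tregs in each genotype, with a median of 0.21 in KI cells and 0.46 in WT cells. Of all tested probe sets 36.6% passed in KI cells and 28.9% in WT cells. Cxcr5, the receptor that brings cells to follicles, was higher by 2.00 in KI cells and 1.29 in WT cells. Gfi1, a transcriptional repressor, was higher by 1.83 and 1.67, and Bcl6, a repressor that follicular helper cells need to form, by 0.50 and 0.80. Cd4 was lower, by -0.49 and -0.71. Rag1, Rag2 and Ptcra, targets of E proteins in the thymus, peaked between 2.87 and 3.14 and were not tested.

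Of other helix-loop-helix proteins 2 of 18 genes were tested and both were higher in Tregs, with a median of 1.35 in KI cells and 1.24 in WT cells, where 16.9% and 13.7% of all tested probe sets were higher. Bhlhe40, a repressor that binds E-boxes, was higher by 1.74 in KI cells and 1.42 in WT cells, and Mxd4, a partner of Max, by 0.96 and 1.06. Id4 peaked at 3.28. Among cofactors 9 of 13 were tested, and 1 passed in KI cells and 2 in WT cells, against 36.6% and 28.9% of all tested probe sets. Cbfa2t2, a corepressor that E proteins recruit, was higher by 0.26 in KI cells (adjusted p = 0.038) and 0.27 in WT cells (adjusted p = 0.0407), and Ssbp2 by 0.24 in WT cells (adjusted p = 0.0409), and no other cofactor passed. The Ssbp2 difference in KI cells was -0.06 (adjusted p = 0.602), with an interaction of -0.31 (adjusted p = 0.584). The coactivators Crebbp and Kat2b did not pass in either genotype.

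**Figure D5:**
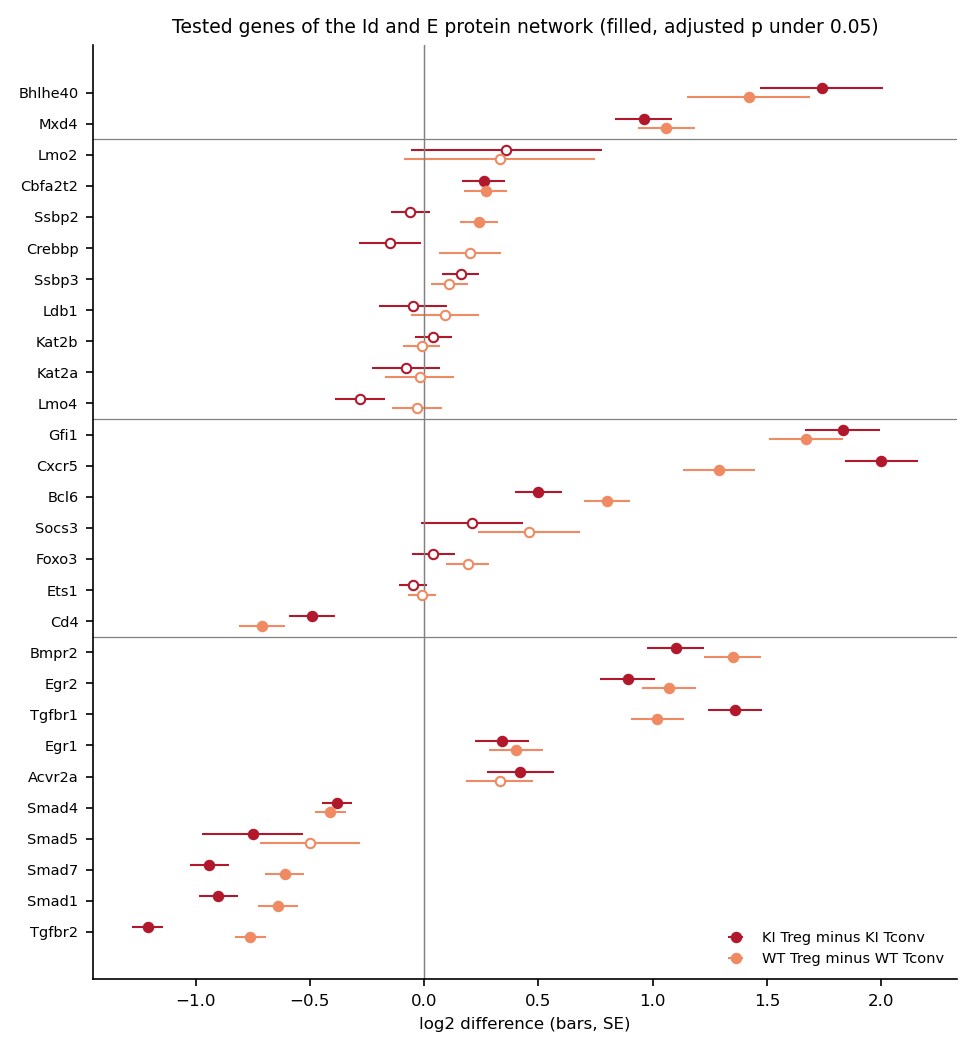
Log2 differences between Tregs and Tconv, with SE from limma, of the 28 tested genes of the 4 lists, in KI cells and in WT cells; filled points passed at an adjusted p under 0.05 and lines separate, from the top, helix-loop-helix partners, cofactors, genes tied to E or Id proteins and inputs to Id genes. Cxcr5 has the largest rise, 2.00 in KI cells, and Tgfbr2 the largest fall, -1.21 in KI cells.

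Between KI and WT Tregs 1 of the 28 tested list genes passed. Tgfbr2 averaged 10.23 in KI Tregs and 10.67 in WT Tregs, a difference of -0.45 (SE 0.067, adjusted p = 0.00163), which no longer passed with 3 ranges as a block (-0.29, adjusted p = 0.255). Cxcr5 differed by 0.50 (adjusted p = 0.131), Lmo4 by -0.38 (adjusted p = 0.1) and Bhlhe40 by 0.52 (adjusted p = 0.356). Between KI and WT Tconv and for the interaction 0 of 28 passed, the lowest interaction p being that of Tgfbr2 (-0.44, unadjusted p = 0.000215, adjusted p = 0.0527). With 3 ranges as a block the Tgfbr2 interaction did pass in limma (-0.44, adjusted p = 0.00868). It passed in 8 of 26 alternatives.

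The genes most like each member over the 16 arrays were found among 8138 tested genes by Pearson correlation, as a description of arrays that share the split of Tregs from Tconv. For Id2 these were Otud1 (0.994), Lypd6b (0.985) and Ttyh3 (0.985), and within groups, from deviations around the group means, the correlations were 0.88, 0.70 and 0.76. For Id3 they were Flicr (0.967), a noncoding RNA gene beside Foxp3, Ssh1 (0.964) and Ryr2 (0.962), with 0.66, 0.72 and 0.85 within groups. Tcf3 was most like Rgp1 (0.909), Def6 (0.887) and Bri3bp (0.875), and Tcf12 most like Zfand6 (0.805), Edem1 (0.761) and Man2a1 (0.744). With Id3, the Id2 probe sets 1435176, 1422537 and 1453596 correlated at -0.89, -0.88 and -0.91 over the 16 arrays, and at -0.02, 0.01 and -0.35 in deviations from the group means.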

How the data were processed

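Total RNA of CD4 T cells sorted from spleen was labelled as biotinylated cRNA and hybridised to 16 arrays, per the labels' protocols. The deposited table holds, per probe set and array, a log2 value that the authors made with RMA in Partek 6.5, per the submitters' processing notes; RMA options are not given in the sources used here. Probe sets were matched to genes through the platform annotation and Entrez identifiers, 28898 to 1 gene, 551 to several and 15588 to none listed, beside 104 controls. Group means were modelled for 18621 probe sets above 5 on at least 4 of 16 arrays with limma 3.58.1 (R 4.3.3, eBayes with trend), after checks on simulated data. P-values are two-sided and adjusted by Benjamini-Hochberg over all tested probe sets. The members, gene lists and tests were chosen with earlier results of these data known. All members were named, with up to 3 genes per list and comparison by lowest p, other genes of the lists chosen after their values were seen, and the 3 genes most correlated with each member. Promoters came from RefSeq (GRCm38.p6), and Id1 and Tcf4 promoters are not shown. Alternatives left out arrays, blocked on ranges of array number, changed the filter, the variance model or the centring, or kept 1 probe set per gene. The number of arrays limits the precision.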

Additional observations from a re-analysis of the deposited data

Results flagged for a closer look

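In 52 groups of 4 arrays, 3 held an array whose gap to the nearest other array exceeded Dixon's 95% critical value, taken as a share of the group's range, where chance gives about 1 in 20 groups, or 2.6. Tcf12 probe set 1421908 read 8.37 on WT Treg 2, against 8.13 to 8.17 on the other 3 WT Treg arrays. Tcf4 probe set 1434149 read 4.14 on KI Treg 3, against 4.31 to 4.34 on the others, and Id1 read 3.40 on WT Treg 2, against 3.16 to 3.20, both near background.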

How the results depend on the processing

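Each tested member was recomputed under up to 28 alternatives, 27 of them with a test. The Id2 and Id3 differences between Tregs and Tconv passed in every alternative with a test. Over all alternatives Id2 probe set 1435176 lay between -1.81 and -1.55 in KI cells and between -1.58 and -1.31 in WT cells. Id3 lay between 0.92 and 1.24 in KI cells and between 1.27 and 1.55 in WT cells. The ends -1.81, -1.31 and 1.24 came from the arrays numbered 24 to 27 alone, which had no test. Without the arrays numbered 24 to 27, 1 member passed between KI and WT Tregs (Id3) in place of 0, and 1101 of 18621 probe sets passed there; the Id3 difference with 1 array left out lay between -0.58 and -0.36. With 1 probe set per gene, 2 members passed between Tregs and Tconv in each genotype in place of 4, since Id2 then counts once. With no filter 6 passed in KI cells, the added ones both Tcf4. No called value was reversed. Over the alternatives the list genes that passed numbered 14 to 18 in KI cells and 13 to 17 in WT cells between Tregs and Tconv, 0 to 3 between KI and WT Tregs (Tgfbr2, and under some alternatives Bhlhe40, Il10 or Cdkn1a), and 0 or 1 (Tgfbr2) for the interaction. No paired analysis was possible because the labels give no replicate numbers that the groups share. Values of Tcf4 and Id1 lie near background, which limits what their differences can show. The alternative without the arrays numbered 15 and 24 was chosen after seeing the data.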
